A study of Homo sapiens with 2 samples.

Results

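The genes described here encode the ligand, receptors and signaling complex of the extrinsic route into apoptosis. They were chosen by name, as the probe sets whose platform annotation carries 1 of 10 gene symbols, and each symbol fell on 1 of the 23786 probe sets of the array table. HCT116 is an established cell line from a human colon carcinoma. RNA came from HCT116 cells given 20 µM LXR623, which activates liver X receptors, for 24 h, and from HCT116 cells given the solvent, 0.1% DMSO. The labels name no genetic change in either group and place treatment in medium with 1.5% serum. Each group is 1 array, so no difference has an error or a test, and an effect of the compound cannot be told apart from other differences between the cultures. Values are log2 intensities summarized by RMA, and each difference is the LXR623 value minus the DMSO value. Features whose brighter array gave at least 4.42, the table median, are called measured below, and these were 12279 features and 8 of the 10 genes. Each of these 8 lay above that level in both arrays.

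Death receptors are members of the TNF receptor superfamily that carry a death domain on their cytoplasmic side. When TRAIL or Fas ligand binds, the receptors recruit the adaptor FADD, and FADD gathers the initiator caspases caspase-8 and caspase-10 and their catalytically inactive relative c-FLIP into a death-inducing signaling complex. Caspase-8 activated in this complex cleaves effector caspases and the BH3-only protein Bid, which links the route to mitochondria and the Bcl-2 family, whereas c-FLIP limits the activation and decoy receptors bind TRAIL without transmitting a full death signal.

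Death receptor and caspase-8 complex genes fell into 2 bands in HCT116 cells treated with LXR623. FAS, TNFRSF10B, TNFRSF10D and CFLAR were higher than with DMSO by log2 differences between 0.39 and 0.44, while TNFRSF10A, TNFRSF1A, FADD and CASP8 differed by -0.03 to 0.08. No measured gene of the group reached 1.5-fold in either direction: 0 of 8 were at least 1.5-fold higher, against 6.30% of all measured features, and 0 of 8 at least 1.5-fold lower, against 5.78%. At a lower threshold, a log2 difference of 0.32 in size, 4 of 8 were higher, against 18.1% of measured features, and 0 of 8 lower, against 19.2%. The median difference of the 8 genes was 0.23, and that of all measured features was -0.02. The gap between the bands, 0.31 wide, was noticed after the values were seen and describes these arrays only. In bulk RNA, fewer cells expressing a gene and less of its RNA per cell cannot be told apart.

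**Figure D1:**
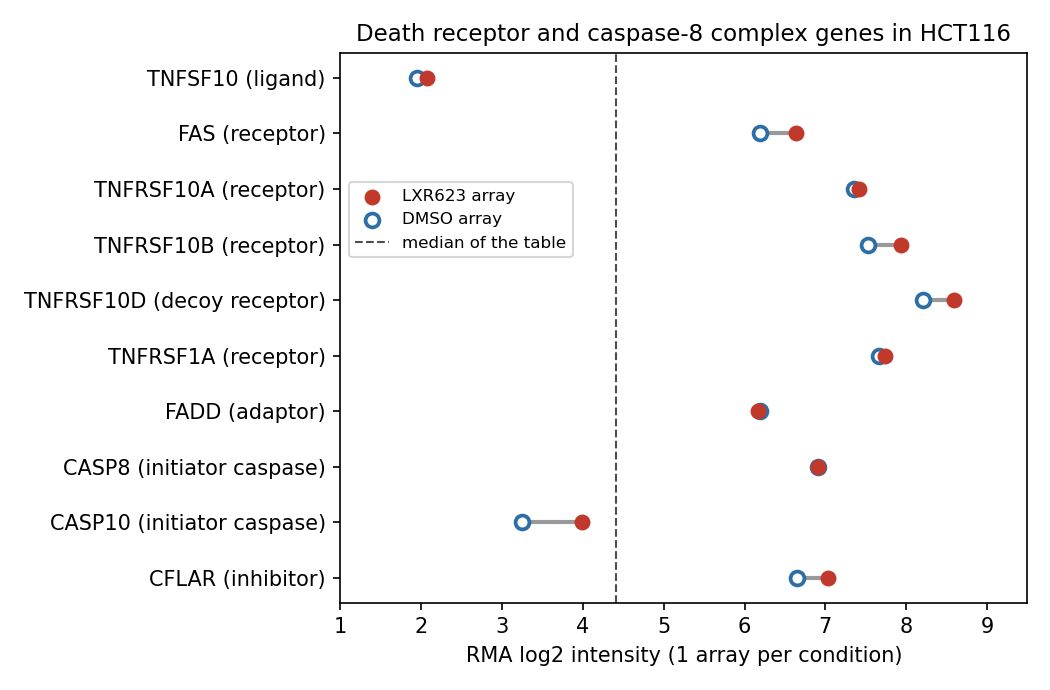
RMA log2 intensity (x axis) of the 10 genes in the LXR623 array (filled red) and the DMSO array (open blue), 1 array per condition, ordered by role, with the median of the table as a dashed line. The points of FAS, TNFRSF10B, TNFRSF10D and CFLAR are apart by 0.39 to 0.44, those of FADD and CASP8 nearly coincide, and TNFSF10 and CASP10 lie left of the dashed line in both arrays.

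TNFSF10 encodes TRAIL, the ligand of the receptors encoded by TNFRSF10A and TNFRSF10B. It gave 2.07 in the LXR623 array and 1.95 in the DMSO array. Both values lie far below 4.42, so its difference of 0.12 was not read as a change. The transcripts of the other death ligands were as dim, that is, below 4.42 in both arrays: FASLG, which encodes Fas ligand, gave 2.34 in the LXR623 array and 2.07 in the DMSO array, and TNF gave 3.22 in the LXR623 array and 2.94 in the DMSO array.

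FAS encodes the receptor of Fas ligand and had the largest difference among the measured genes of the group. Its value was 6.63 in the LXR623 array, against 6.19 in the DMSO array, a difference of 0.44. Among all measured features 11.3% had a difference at least as high, and among the 500 measured features nearest to FAS in mean level 8.80% did. In those 500 features the central 95% of differences ran from -0.84 to 0.73, so FAS lay within the usual spread of features of its level.

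The TRAIL receptors did not differ alike. TNFRSF10B, which encodes the death receptor DR5, gave 7.93 in the LXR623 array, against 7.53 in the DMSO array, a difference of 0.40 or 1.32-fold. TNFRSF10D encodes a decoy receptor with a truncated death domain and gave 8.59 in the LXR623 array and 8.21 in the DMSO array, a difference of 0.39. TNFRSF10A, which encodes the second TRAIL death receptor, DR4, gave 7.42 in the LXR623 array and 7.35 in the DMSO array, a difference of 0.07. The band of higher genes thus held a death receptor and a decoy receptor of the same ligand. In the 500 measured features nearest to TNFRSF10B in mean level, the central 95% of differences ran from -0.66 to 0.75. For TNFRSF10D the same range was -0.66 to 0.77, so both genes lay within the usual spread of features of their level. Of measured features 13.1% were at or above the difference of TNFRSF10B, 14.0% at or above that of TNFRSF10D and 40.3% at or above that of TNFRSF10A. TNFRSF10C, the other TRAIL decoy receptor, which is anchored to the membrane by a lipid and lacks a death domain, gave 8.41 in the LXR623 array and 7.19 in the DMSO array. It is not 1 of the 10 genes, and with a difference of 1.21 or 2.32-fold it was the 1 gene of the TRAIL receptor cluster past 1.5-fold. The genes of these 4 TRAIL receptors are similar in sequence, and how far their probe sets share signal was not tested.

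TNFRSF1A encodes TNFR1, the death domain receptor of TNF, which mainly signals to NF-κB and feeds caspase-8 through a second complex in the cytosol. It gave 7.74 in the LXR623 array and 7.67 in the DMSO array. Its difference of 0.08 was close to that of TNFRSF10A, and 39.2% of measured features had one at least as high.

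The adaptor and the main initiator caspase gave nearly equal values in both arrays. FADD gave 6.17 in the LXR623 array and 6.19 in the DMSO array, a difference of -0.03. CASP8 gave 6.91 in the LXR623 array and 6.91 in the DMSO array. Its difference rounds to 0.00 and ran from -0.03 to 0.04 when the arrays were scaled in other ways, so it has no direction. CFLAR, which encodes c-FLIP, gave 7.04 in the LXR623 array, against 6.65 in the DMSO array, a difference of 0.39 or 1.31-fold. Among measured features 14.0% had a difference as high as that of CFLAR. The transcript of the inhibitor was higher in the LXR623 array. Those of the adaptor and of caspase-8, with which it assembles, differed by 0.03 or less in size. Among the 500 measured features nearest to CFLAR in mean level, the central 95% of differences ran from -0.74 to 0.85. CFLAR thus lay within the usual spread of features of its level, and its contrast with FADD and CASP8 describes these arrays only. CFLAR has long and short isoforms, which 1 probe set per gene does not separate.

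CASP10, the second initiator caspase, had the largest difference of the 10 genes and also dim values. It gave 3.995 in the LXR623 array and 3.25 in the DMSO array, both short of 4.42. The difference of 0.74 is 1.67-fold, and without a filter on dim features CASP10 was the 1 of 10 genes at least 1.5-fold higher, against 5.22% of all features, with 0 of 10 at least 1.5-fold lower, against 4.76%. Of the 500 features nearest in mean level 3.80% had a difference at least as high, and the central 95% of their differences ran from -0.76 to 0.92. FADD was the 1 of the 10 genes with a lower value in the LXR623 array.

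**Figure D2:**
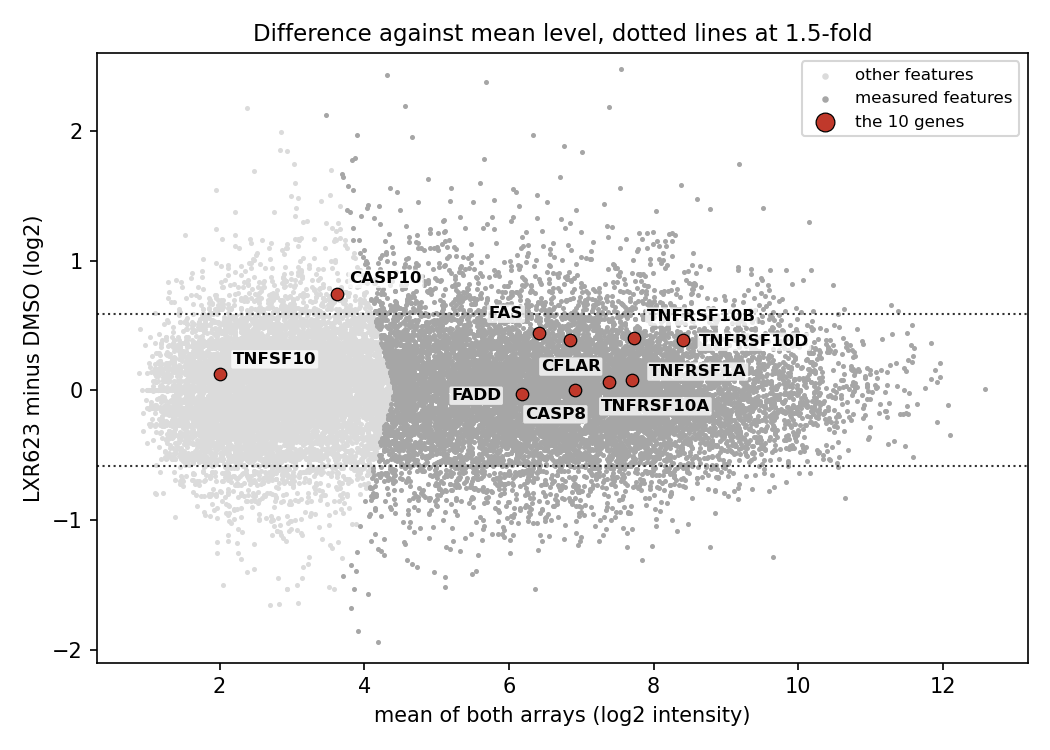
Difference LXR623 minus DMSO (y axis, log2) against the mean of both arrays (x axis, log2 intensity) for all 23786 features, with measured features in dark gray, other features in light gray, the 10 genes in red and dotted lines at 1.5-fold. The 8 measured genes lie between the dotted lines among the bulk of features, in a band between 0.39 and 0.44 and a band around 0, and CASP10 lies above the upper line among dim features.

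Sequences at transcription starts are shown for FAS and CFLAR, of the higher band, and for FADD and CASP8, with nearly equal values. The bands were noticed in these same arrays, so the printed windows are examples and no comparison of the bands. Each window holds 250 bases before to 50 bases after a start, from RefSeq on GRCh38.p14, read 5′ to 3′ on the strand of the gene. The first window listed for each gene is printed, and for FAS also the second, which was added because it holds a κB match. Capitals mark the GC box GGGCGG, the element bound by Sp1, and the κB consensus, bound by NF-κB, searched on both strands.
FAS first window, chr10:88990548-88990847, strand +: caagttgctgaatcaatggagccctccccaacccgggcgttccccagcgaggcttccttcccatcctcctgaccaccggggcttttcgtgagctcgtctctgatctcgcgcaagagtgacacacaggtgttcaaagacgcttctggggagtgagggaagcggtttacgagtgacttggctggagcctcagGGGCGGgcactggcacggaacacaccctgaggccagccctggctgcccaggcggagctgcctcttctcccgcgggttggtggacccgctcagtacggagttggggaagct
FAS second window, chr10:88991181-88991480, strand +: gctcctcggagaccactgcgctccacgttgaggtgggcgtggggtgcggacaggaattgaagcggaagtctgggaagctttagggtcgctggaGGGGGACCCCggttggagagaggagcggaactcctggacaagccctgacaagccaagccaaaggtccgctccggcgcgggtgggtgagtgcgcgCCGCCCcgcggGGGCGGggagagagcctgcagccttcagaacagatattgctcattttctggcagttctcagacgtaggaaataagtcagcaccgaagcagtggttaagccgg
CFLAR first window, chr2:201118466-201118765, strand +: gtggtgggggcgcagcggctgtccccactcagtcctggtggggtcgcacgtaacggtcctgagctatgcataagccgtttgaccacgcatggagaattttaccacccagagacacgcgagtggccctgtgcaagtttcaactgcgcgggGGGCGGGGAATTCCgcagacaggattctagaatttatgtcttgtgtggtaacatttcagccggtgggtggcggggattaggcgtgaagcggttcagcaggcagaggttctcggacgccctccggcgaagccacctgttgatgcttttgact
FADD first window, chr11:70203046-70203345, strand +: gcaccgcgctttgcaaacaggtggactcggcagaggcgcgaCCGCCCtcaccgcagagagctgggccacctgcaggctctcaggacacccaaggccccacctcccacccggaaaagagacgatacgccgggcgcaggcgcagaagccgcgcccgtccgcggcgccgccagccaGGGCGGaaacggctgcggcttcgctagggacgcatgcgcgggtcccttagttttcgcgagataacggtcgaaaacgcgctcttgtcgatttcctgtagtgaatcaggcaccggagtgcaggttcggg
CASP8 first window, chr2:201233213-201233512, strand +: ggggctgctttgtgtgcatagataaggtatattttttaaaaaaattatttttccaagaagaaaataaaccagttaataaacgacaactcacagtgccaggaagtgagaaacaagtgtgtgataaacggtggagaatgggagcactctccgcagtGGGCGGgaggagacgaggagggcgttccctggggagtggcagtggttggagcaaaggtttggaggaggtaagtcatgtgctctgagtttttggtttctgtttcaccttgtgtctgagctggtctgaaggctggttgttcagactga

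Windows of 6 of the 10 genes were used, 13 windows in all. Any windows of the TRAIL receptors were left out, so the counts below do not cover TNFRSF10B and TNFRSF10D of the higher band. A GC box stood in 7 of the 13 windows, the 5 printed ones among them, and 45.0% of all 35116 promoter windows hold one. The first window of FAS overlaps a FAS window that is not printed, and a match in the overlap counts in both. A κB match stood in the CFLAR first window, where it overlaps the GC box in 1 run of capitals, and in the FAS second window. It was found in none of the other 11 windows of these genes, which include further windows of FAS and CFLAR. A count of 2 of 13 windows, beside 11.3% of all windows, does not set these genes apart. The pattern TGANTCA, a loose form of the AP-1 element in which N is any base, was found in 5 of the 13 windows. It was found in 7.71% of all windows. In the first windows of FAS and FADD it reads TGAATCA, not the stricter TGACTCA or TGAGTCA. The cyclic AMP element TGACGTCA, in 1.85% of all windows, and the C/EBP-ATF element TGATGNAA, in 3.62%, were found in none of the 13. These matches describe the letters of the windows, and binding of a factor was not measured.

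The chromosomal order of the genes was compared with their differences, since both groups of paralogs lie side by side. On chromosome 2, CFLAR, CASP10 and CASP8 are direct neighbors among protein-coding genes with a probe set, and their differences in that order were 0.39, 0.74 and 0.00. Of the 3 flanking genes on each side, STRADB, which encodes a pseudokinase, gave 6.56 in the LXR623 array and 7.40 in the DMSO array, a difference of -0.84. HYCC2 differed by -0.66, ORC2, a subunit of the origin recognition complex, by -0.54, TRAK2 by -0.18 and NDUFB3, a complex I subunit, by -0.16, while FLACC1, with dim values in both arrays, differed by 0.56. On chromosome 8 the order TNFRSF10B, TNFRSF10C, TNFRSF10D and TNFRSF10A gave 0.40, 1.21, 0.39 and 0.07. The flanking genes there differed by -0.42 to 0.39, with CHMP7, an ESCRT component, at the low end and LOXL2, a lysyl oxidase, at the high end. Within both clusters neighboring genes differed by unequal amounts, from 0.00 for CASP8 to 1.21 for TNFRSF10C.

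**Figure D3:**
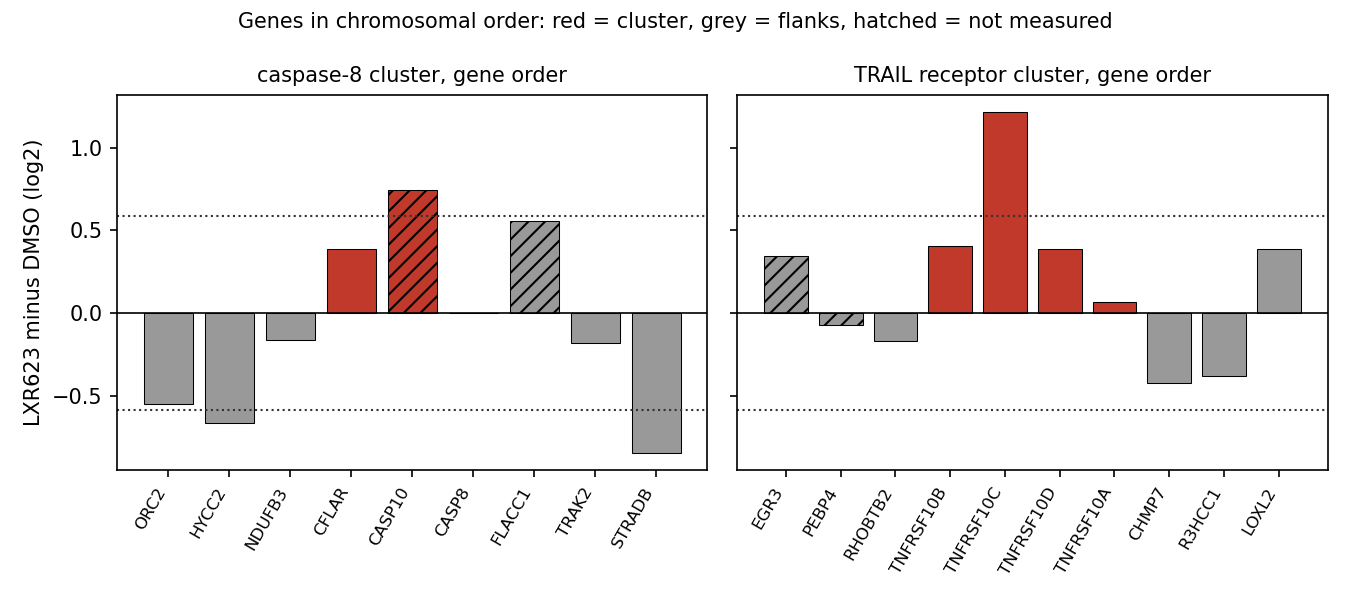
Difference LXR623 minus DMSO (y axis, log2) of protein-coding genes in chromosomal order (x axis) around the caspase-8 cluster and the TRAIL receptor cluster, with cluster genes in red, 3 flanking genes per side in gray, hatching for genes not counted as measured and dotted lines at 1.5-fold. TNFRSF10C at 1.21 stands above its neighbors, and the bar of CASP8, at 0.00, has no visible height.

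Genes that act with the receptors were read from 7 lists. The shares of all measured features past 1.5-fold, 6.30% upward and 5.78% downward, are the background for the counts of each list. In lists of 5 to 19 measured genes, a count of 1 does not set a list apart from these shares. Among the other ligands of the TNF superfamily 5 of 16 were measured, of which 1 was at least 1.5-fold higher and 0 lower, with a median of 0.23. TNFSF18, which encodes the ligand of GITR, a costimulatory receptor, gave 6.54 in the LXR623 array and 4.76 in the DMSO array. Its difference of 1.79, or 3.45-fold, was the largest of all 7 lists, and its receptor gene TNFRSF18 differed by 0.31. TNFSF9, the 4-1BB ligand, differed by 0.29, CD70, the ligand of CD27, by 0.23 and EDA, ectodysplasin, by -0.15. CD70 gave 4.53 in the LXR623 array and 4.30 in the DMSO array. It thus counted as measured through the LXR623 array alone, and its difference is the median of this list. Most other ligand genes were dim, with 11 of 16 below 4.42 in both arrays.

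Among the other receptors of the superfamily 12 of 23 were measured, and 1 was at least 1.5-fold higher, TNFRSF10C as given above, and 0 lower. Their median was 0.10. TNFRSF25, which encodes the death receptor DR3, gave 6.05 in the LXR623 array and 5.54 in the DMSO array, a difference of 0.52, and TNFRSF21, which encodes the death receptor DR6, differed by 0.27. TNFRSF1B, the second TNF receptor, which has no death domain, differed by 0.43. It gave 4.47 in the LXR623 array and 4.05 in the DMSO array, so it counted as measured through the LXR623 array alone. RELT differed by -0.45.

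Among the adaptors, ubiquitin ligases and kinases that bind TNF receptor complexes 19 of 21 were measured, with 1 higher and 1 lower past 1.5-fold and a median of 0.06. RBCK1, which encodes HOIL-1 of the linear ubiquitin ligase, gave 8.65 in the LXR623 array and 7.60 in the DMSO array, a difference of 1.05. The partners of HOIL-1 did not share this difference in size, with SHARPIN at 0.20 and RNF31, the catalytic subunit, at -0.18. TRAF5, an adaptor of several TNF receptors, gave 4.57 in the LXR623 array and 5.80 in the DMSO array, a difference of -1.22. CHUK, an IκB kinase, differed by -0.58 and TNFAIP3, the ubiquitin editing enzyme A20, by 0.44, while TRADD, the adaptor of TNFR1, differed by -0.03.

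Regulators of the caspase-8 complex had a median of -0.21, and of 16 measured genes 1 was higher and 1 lower past 1.5-fold. SQSTM1, the autophagy receptor p62, which binds ubiquitinated caspase-8, gave 10.94 in the LXR623 array and 10.32 in the DMSO array, a difference of 0.63. GALNT14, a transferase that starts O-glycosylation, a modification of TRAIL receptors, gave 5.82 in the LXR623 array and 6.45 in the DMSO array, a difference of -0.63. TRAIP, a ubiquitin ligase, differed by -0.51. CASP8AP2, named for its binding to caspase-8, differed by -0.39, CUL3, the scaffold of a ubiquitin ligase of caspase-8, by -0.23 and PEA15, a death effector domain protein, by -0.27. Of these 16 genes, 11 had a lower value in the LXR623 array, as did 51.7% of all measured features.

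Necroptosis is the lytic death that can follow TNF receptor signaling when caspase-8 is inactive. The 7 measured genes of its list had a median of -0.41, the lowest of the 7 lists. Past 1.5-fold, 0 of them lay higher, beside 6.30% of measured features, and 1 lay lower, beside 5.78%. PGAM5, a mitochondrial phosphatase, gave 7.87 in the LXR623 array and 8.45 in the DMSO array, a difference of -0.59, and fell short of 1.5-fold when the trend with mean level was removed or the arrays were quantile normalized. MLKL, the pore-forming executor, gave 5.96 in the LXR623 array and 6.50 in the DMSO array, a difference of -0.54. The ubiquitin ligases PELI1 and STUB1 differed by -0.50 and -0.41. TICAM1 differed by -0.17, while CHMP2A and CHMP4B went the other way, by 0.28 and 0.05. Of these 7 genes, 5 had a lower value in the LXR623 array, as did 51.7% of all measured features. RIPK3, the kinase that phosphorylates MLKL, was dim, with 2.24 in the LXR623 array and 2.17 in the DMSO array.

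Caspases outside the complex and the proteins they act with had a median of -0.15 over 16 measured genes, of which 1 was at least 1.5-fold higher and 0 lower. CASP4, an inflammatory caspase, gave 7.72 in the LXR623 array and 6.99 in the DMSO array. BID, the substrate that couples caspase-8 to mitochondria, gave 7.78 in the LXR623 array and 8.09 in the DMSO array, a difference of -0.31. HTRA2, a mitochondrial protease that antagonizes inhibitors of apoptosis, differed by -0.51 and DFFA, the inhibitor of the apoptotic nuclease, by -0.33. XIAP, which inhibits caspases, differed by 0.19 and CASP9, the initiator of the mitochondrial route, by 0.26.

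Of 18 measured transcription factors that act on death receptor genes, 4 were higher past 1.5-fold, against 6.30% of measured features, and 1 was lower, against 5.78%. Their median was 0.08. FOS and JUN, which form AP-1, differed by 0.88 and 0.76, RELB, an NF-κB subunit, by 0.82 and ATF3, a stress-induced factor, by 0.78. ATF3 gave 4.66 in the LXR623 array and 3.87 in the DMSO array, so it counted as measured through the LXR623 array alone. The main NF-κB subunits RELA and NFKB1 differed by -0.05 and -0.07. Short of 1.5-fold, ATF4, IRF1 and FOXO3 differed by 0.56, 0.55 and 0.49, and E2F1 by -0.44. TP73 differed by -0.85. DDIT3, which encodes CHOP, a factor known to act on TNFRSF10B, had dim values of 4.09 in the LXR623 array and 3.10 in the DMSO array. Whether any of these factors acted on the receptor genes was not tested.

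**Figure D4:**
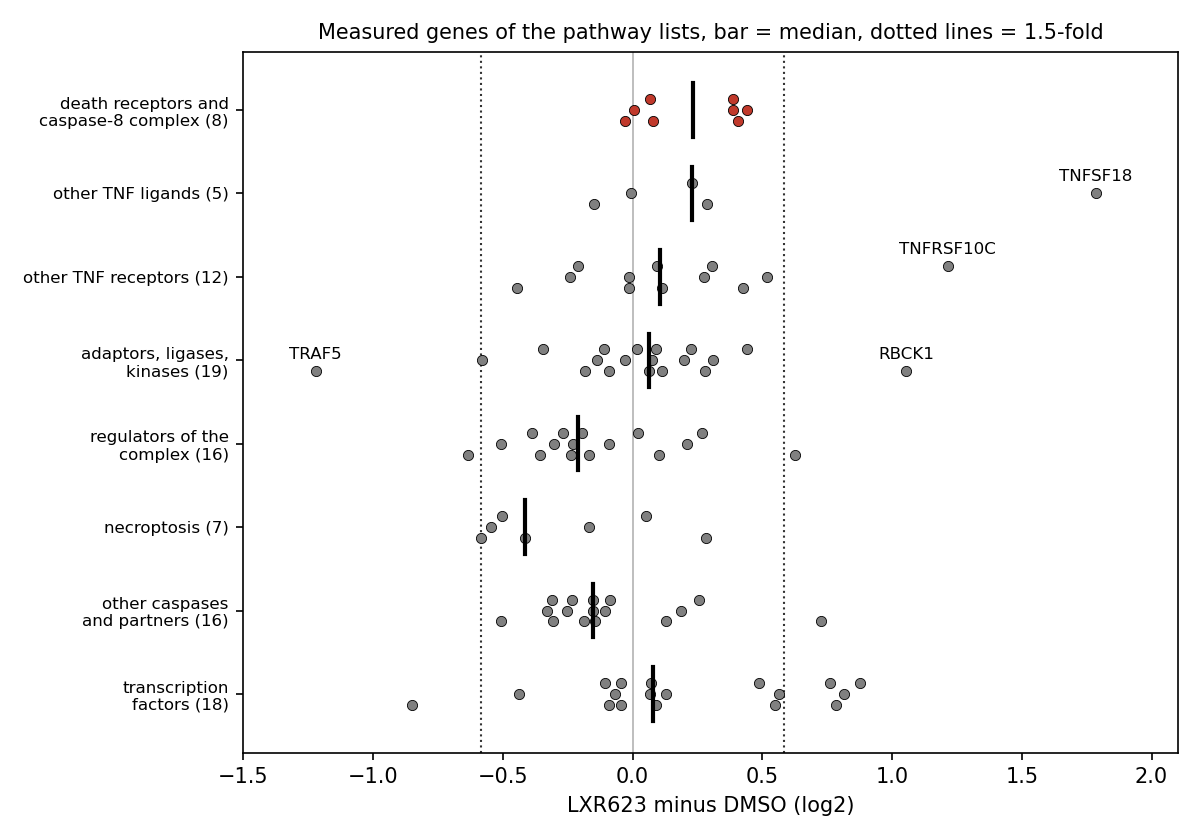
Difference LXR623 minus DMSO (x axis, log2) of the measured members of the death receptor and caspase-8 complex group (red) and of the 7 lists (gray), 1 point per gene, with a bar at each median, the number of measured genes in parentheses and dotted lines at 1.5-fold. The red points span -0.03 to 0.44, inside the dotted lines, whereas TNFSF18, TNFRSF10C and RBCK1 lie right of them and TRAF5 left of them.

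The labels were checked with genes known to respond to liver X receptors. ABCA1, the cholesterol exporter, gave 5.14 in the LXR623 array and 3.58 in the DMSO array, a difference of 1.56. SREBF1, which drives fatty acid synthesis, differed by 0.91 and MYLIP, which degrades the LDL receptor, by 0.35. ABCG1, a sterol exporter, gave 4.64 in the LXR623 array and 3.90 in the DMSO array. ABCA1 and ABCG1 counted as measured through the LXR623 array alone, and their DMSO values lie below 4.42, so the sizes of their differences are uncertain. Of 12 markers of colon epithelium 7 were measured, such as EPCAM with 10.21 in the LXR623 array and 10.15 in the DMSO array, and CDH1, CLDN7 and KRT19 differed by 0.13, 0.22 and 0.31, whereas CDX1, VIL1, LGALS4, CEACAM5 and KRT20 were dim. KRT8, a keratin of simple epithelia, differed by 1.50, whereas the measured markers KRT18 and CDX2 differed by -0.06 each. Of 6 leukocyte markers 1 was measured, CD68, which differed by 0.56, while PTPRC, the pan-leukocyte marker, gave 1.77 in the LXR623 array and 1.60 in the DMSO array. Of 7 fibroblast markers 1 was measured, COL1A1, which differed by 0.12, and of 4 endothelial markers 0 were. Summed log2 values were 78.3 with LXR623 and 76.1 with DMSO for colon epithelium, 18.9 with LXR623 and 18.3 with DMSO for leukocytes, 22.6 with LXR623 and 23.1 with DMSO for fibroblasts, and 11.8 with LXR623 and 9.79 with DMSO for endothelium. The sums include dim probe sets and are not marker levels. KRT8 alone accounts for 1.50 of the colon epithelium difference, and PECAM1, with 2.78 in the LXR623 array and 1.82 in the DMSO array, for 0.96 of the endothelium difference. The part of these markers in the differences given above was not tested.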

How the data were processed

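Total RNA of HCT116 cells was labeled with biotin and hybridized to Affymetrix arrays. The authors deposited log2 intensities made by RMA, with affy 1.36.1 and R 2.15.1 named in the submitters' processing notes. RMA adjusts background and quantile normalizes the arrays, which can compress differences of dim features. The genome build and array filters are not given in the sources used here. Of 23786 probe sets 22458 carry 1 gene symbol in the platform annotation, 1328 are unnamed here, and 0 symbols fall on more than 1 probe set. The 10 members and the 12 gene lists were chosen with earlier results of these data known, and 163 of 176 list genes were annotated. Named genes are the 10 members, in each list the measured genes past 1.5-fold and the 4 with the largest difference in size, 4 LXR targets, and further genes chosen after their values were seen, such as partners of a named gene. Since each condition has a single array, differences are given as descriptions, and the number of arrays limits the precision. Genes were set against all measured features. Alternatives were other filters, thresholds at a log2 difference of 0.32 and at 2-fold, removal of a lowess trend with a fraction of 0.3, quantile normalization, centering and the mean. The procedure was tested on simulated data with little noise and with planted changes larger than the difference of any of the 10 members. That test does not cover differences of the size of the members. Python 3.11.15, numpy 2.4.6, pandas 2.3.3, statsmodels 0.14.6 and matplotlib 3.10.9 were used.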

Additional observations from a re-analysis of the deposited data

How the results depend on the processing

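No paired analysis was possible because neither condition has a replicate. With the lowess trend removed, with quantile normalization or with centered arrays, the 10 genes shifted by -0.05 to 0.04 and stayed on their side of 1.5-fold, and CASP8 had a negative difference with centered arrays. The median of the measured genes, 0.23, was 0.27 without the trend, 0.25 with quantile normalization, 0.19 with centered arrays and 0.25 with no filter, and their mean was 0.22. A filter at the 25th percentile admits CASP10, and the median was then 0.39. With that filter, which still leaves out TNFSF10, or with none, CASP10 alone was at least 1.5-fold higher. At the lower threshold, a log2 difference of 0.32, 4 measured genes were higher. With no filter, features past 1.5-fold numbered 1242 higher and 1133 lower. Among measured features, 169 were higher and 91 lower at 2-fold, and 2223 higher and 2362 lower at the lower threshold. List genes past the threshold, 9 higher and 4 lower, numbered 3 and 1 at 2-fold and 15 and 16 at the lower threshold. A higher threshold or filter leaves fewer features. The medians of the 7 lists kept their signs under the 3 scalings, while CHUK passed 1.5-fold with centered arrays. With the trend removed, 5 transcription factors were at least 1.5-fold higher. Depth is unknown for arrays, and dim signal limits TNFSF10 and CASP10.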

Other observations

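Identical values in both arrays were found for 1355 of 23786 features. They made up 10.3% of the 11507 features that did not count as measured and 1.35% of the measured ones. None of the 10 death receptor and caspase-8 complex genes was among them, whereas VIL1 of the colon epithelial markers was, with 3.12 in the LXR623 array and 3.12 in the DMSO array. The cause was not tested. A difference of exactly 0 for a dim gene in this table thus occurred more often than for a bright one.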
